A study of Mus musculus with 96 samples.

Results

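The genes described here are 44 mouse genes of DNA replication and S phase, followed by RNA-seq in C2C12 cells whose mitochondria were inhibited in several ways. They were chosen by name from the 54146 genes of the deposited table, for their textbook roles in origin licensing, the replication fork, nucleotide supply and S phase transcription, and all 44 were found. Earlier results of these data were known when the list was made. C2C12 is a mouse muscle line that grows as single-nucleus myoblasts and fuses into myotubes when serum is lowered. The table holds 96 samples in 35 groups, 3 per group apart from 9 groups of 2 (chloramphenicol and its DMSO controls, NDI1 myoblasts and GFP myotubes). The labels number the samples of a group without naming separate cultures or days, so p-values measure only the spread between these samples, which may be technical.

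Myoblasts were stable lentiviral lines given 300 ng/ml doxycycline, which switches the transgene on, in 10% dialyzed serum. They expressed luciferase (the control), LbNOX, mitoLbNOX or NDI1. LbNOX is a bacterial enzyme that oxidizes NADH in the cytosol with water as product, mitoLbNOX is the same enzyme sent to the mitochondrial matrix, and NDI1 is a yeast NADH dehydrogenase that piericidin does not block. Treatments lasted 10 hr with DMSO (the vehicle), 0.5 µM piericidin (complex I), 0.5 µM antimycin (complex III) or 1 µM oligomycin (ATP synthase), and luciferase and LbNOX myoblasts also had 48 hr of 20 µg/ml chloramphenicol, which stops mitochondrial translation, with uridine present. Untransduced cells had 24 hr of 2% horse serum (day 1 cells) or 4 days of it (day 4 myotubes) and no doxycycline. Day 4 myotubes were also given 0.5 µM BAM15, an uncoupler, oligomycin together with BAM15 or piericidin, or 5% oxygen with DMSO or oligomycin, the low oxygen having started the night before. A further set of myotubes carried an adenovirus for GFP alone or for GFP with LbNOX, added after 48 hr of low serum. Media held neither pyruvate nor, in the 10 hr experiments, uridine.

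A cell copies its genome in steps, each with its own proteins. The origin recognition complex, with Cdc6 and Cdt1, loads the Mcm2 to Mcm7 ring onto origins while Cdk activity is low, and geminin (Gmnn) holds Cdt1 back once S phase starts. Cdc45 and the GINS complex join the ring to make the active helicase, primase and the polymerases then copy the strands, and the Pcna clamp, its Rfc loader, Rpa, Fen1 and Lig1 complete them. Ribonucleotide reductase (Rrm1, Rrm2), thymidine kinase (Tk1), thymidylate synthase (Tyms) and dUTPase (Dut) supply deoxynucleotides. Many of these genes are known targets of E2F factors and are transcribed around the start of S phase, and C2C12 cells leave the cell cycle as they differentiate.

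Promoter sequence is described first. Many members are known E2F targets and were chosen for roles that such genes have, so a high share of E2F-type letters follows from the choice. The shares below describe the list and are no evidence on the inhibitors. RefSeq promoters on GRCm38.p6, running from 250 bases before to 50 bases after each start, were given for 36 of the 44 members. The E2F letters searched on both strands were TTTGGCGC, TTTCCCGC, TTTGCCGC and TTTCGCGC, and a stretch can match more than 1 of them. They stood in a promoter of 15 of the 36 members (41.7%), against 704 of 27025 genes in the whole table (2.6%). By promoter, the shares were 15 of 44 (34.1%) and 744 of 32851 (2.26%). CCAAT was found in 23 of 36 members (63.9%) against 41.1% of genes, and TTTGAA, letters of the cell cycle homology region, in 6 of 36 (16.7%) against 20.2%. The licensing genes carried the E2F letters most often, in 7 of 9 with a promoter, and none of the 5 nucleotide supply genes did. Near forms of these letters were not searched, such as the tttggcgg left uncounted in the E2f2 promoter below. The shares by role hold for the letters searched only. In the 4 promoters below, each from a member whose values are described later, capitals mark every match to the E2F letters, CCAAT or TTTGAA, and of the E2f2 promoters the one with the E2F letters is given. Mcm5 and Mcm6 belong to the helicase ring, Cdc6 helps to load it, and E2f2 is the member that rose with differentiation when most others fell.
Mcm5, chr8:75109259-75109558, plus strand: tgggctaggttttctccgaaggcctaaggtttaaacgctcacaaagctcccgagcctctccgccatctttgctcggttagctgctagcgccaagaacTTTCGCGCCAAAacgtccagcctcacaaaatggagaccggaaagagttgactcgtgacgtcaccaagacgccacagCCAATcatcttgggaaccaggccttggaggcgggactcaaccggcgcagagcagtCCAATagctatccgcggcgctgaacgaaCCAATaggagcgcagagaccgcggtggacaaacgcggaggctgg
Mcm6, chr1:128359656-128359955, minus strand: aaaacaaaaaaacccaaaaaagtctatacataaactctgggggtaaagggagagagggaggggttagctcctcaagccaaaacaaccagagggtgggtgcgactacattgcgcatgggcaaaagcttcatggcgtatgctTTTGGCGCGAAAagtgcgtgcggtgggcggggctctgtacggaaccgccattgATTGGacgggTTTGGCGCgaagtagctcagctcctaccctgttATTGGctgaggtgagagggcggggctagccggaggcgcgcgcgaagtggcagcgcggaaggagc
Cdc6, chr11:98907901-98908200, plus strand: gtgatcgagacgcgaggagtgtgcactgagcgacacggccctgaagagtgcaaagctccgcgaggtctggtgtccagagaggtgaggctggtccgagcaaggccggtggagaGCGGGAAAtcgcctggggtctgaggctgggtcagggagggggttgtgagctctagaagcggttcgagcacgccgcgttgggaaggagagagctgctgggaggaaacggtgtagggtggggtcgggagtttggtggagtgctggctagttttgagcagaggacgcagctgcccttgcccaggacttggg
E2f2, chr4:136172024-136172323, plus strand: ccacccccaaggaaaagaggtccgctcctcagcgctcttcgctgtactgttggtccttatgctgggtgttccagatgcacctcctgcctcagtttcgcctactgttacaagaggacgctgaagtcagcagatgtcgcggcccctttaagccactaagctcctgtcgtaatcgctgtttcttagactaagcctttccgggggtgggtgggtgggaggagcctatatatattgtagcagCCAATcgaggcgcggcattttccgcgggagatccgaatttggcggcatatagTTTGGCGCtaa
In Mcm5 and in Mcm6, 2 of the E2F matches overlap in 1 run of letters. A match describes the letters only and shows neither binding nor a cause.

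Total estimated counts ran from 6458295 to 15364638 per sample, with a median of 10331177. Levels are given in CPM, estimated counts scaled to a library total of 1000000 after TMM normalization over all samples. They are not per length, so they are compared between samples and not between genes. Luciferase and NDI1 were counted only in the cells labelled with them, and LbNOX in the LbNOX and mitoLbNOX cells. The eGFP sequence was counted in the GFP myotubes and also, at 2127 to 2995 CPM, in the LbNOX myotubes. The 10 myotube markers (myosins, actin, troponins and the like) summed to 18.6 to 24.7 CPM in luciferase myoblasts with DMSO, 13121 to 13531 CPM in day 1 cells and 15722 to 16456 CPM in day 4 myotubes. The 6 myoblast markers summed to 790.1 to 809, 477 to 496 and 257 to 271 CPM in the same groups, a fall carried by Id3 (means 488, 67 and 29 CPM) and Id1. Of the other 4, Myod1 (123, 202 and 156 CPM) and Pax7 (2.67, 12.5 and 5.08 CPM) had higher means in both than in myoblasts, while Myf5 (11, 17.5 and 8.87 CPM) and Vcam1 (50.8, 163 and 41.1 CPM) had higher means in day 1 cells and lower ones in day 4 myotubes. Adipocyte, endothelial, immune and epithelial marker lists summed to under 10 CPM in every group, and Epcam, Cfd and Sox10 were at or near 0. The 3 neural markers, nearly all Tubb3, summed to 26.8 to 30.3 CPM in luciferase myoblasts with DMSO and 129 to 145, 58.3 to 65.1 and 43.3 to 52.3 CPM with piericidin, antimycin and oligomycin, with Sox10 at 0. In LbNOX cells they summed to 31.8 to 35.3 CPM with DMSO and 73.4 to 83.7 CPM with antimycin, and their part in the members' levels was not tested. In such bulk samples, fewer cells in S phase and less RNA of these genes per cell cannot be told apart. Some members share transcript sequence with other genes: Chaf1a with Ubxn6, Rfc5 with Wsb2, Pcna with Pcna-ps2, and Tyms, Lig1, Mcm7 and Gins2 with others, so their estimated counts are less certain.

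Summed over the 44 members, the level fell from 5390.5 ± 76.4 CPM (mean ± SD, n = 3) in luciferase myoblasts with DMSO to 2927 ± 54.8 CPM with piericidin, 2779 ± 74.7 CPM with antimycin and 3277 ± 57.2 CPM with oligomycin. The same sum was 5196 ± 113 CPM in LbNOX myoblasts with antimycin and 5601 ± 182 CPM in their own DMSO samples. Day 1 cells held 1372 ± 8.18 CPM and day 4 myotubes 1161 ± 65.2 CPM. Myotubes in 5% oxygen held 696 ± 24.6 CPM, the lowest group mean of all.

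**Figure D1:**
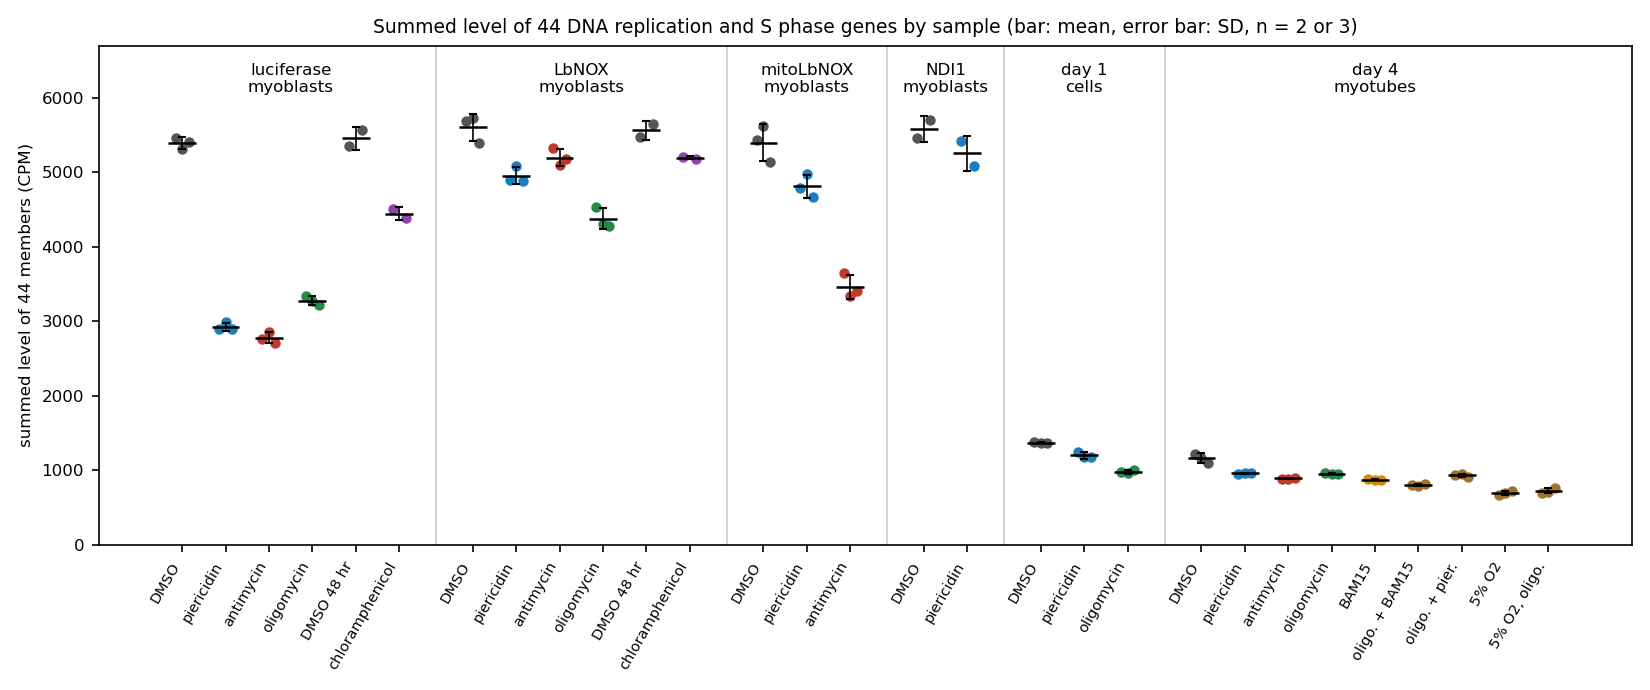
Summed level of the 44 members in CPM (y axis) in each sample (points), by cell line or state and treatment (x axis); horizontal bars are means and error bars the SD of 2 or 3 samples, grey is DMSO, blue piericidin, red antimycin, green oligomycin, purple chloramphenicol, orange BAM15 and brown the combined treatments or 5% oxygen. Luciferase myoblasts fell from 5390.5 ± 76.4 CPM to 2779 ± 74.7 CPM with antimycin, and day 4 myotubes with DMSO sat at 1161 ± 65.2 CPM.

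The first question was how the members respond when respiration is blocked at complex I, complex III or the ATP synthase in control myoblasts. In luciferase cells piericidin lowered 40 of 44 members and raised 1, antimycin lowered 41 and raised 1, and oligomycin lowered 40 and raised 0 (edgeR's quasi-likelihood test, Benjamini-Hochberg adjusted p under 0.05 over all genes tested). All 44 passed the count filter in myoblasts. Beside a log2 fold change, ± gives its standard error. Of all 11978 genes tested, 30.8% were lower and 30.9% higher with piericidin. The corresponding shares were 31.1% and 32.1% for antimycin, and 26.3% and 24.5% for oligomycin. The median log2 fold change of the members was -0.80, -0.92 and -0.70, where the median over all genes was -0.004, -0.0048 and -0.015. At least a 2-fold fall was seen in 15, 15 and 9 members. These 3 comparisons share their DMSO samples, which all lay in outer wells of the plate. The antimycin samples all lay in inner wells, so plate position and antimycin cannot be told apart within those groups. Proliferation markers of later cell cycle stages (Mki67, Top2a, Ccnb1, Cdk1, Bub1, Plk1) summed to 1284 to 1348 CPM with DMSO, 1034 to 1111 CPM with piericidin, 749.8 to 778 CPM with antimycin and 1038 to 1085 CPM with oligomycin. These markers did not move alike: in that order the means of Bub1 were 89.2, 36.4, 38.8 and 59.9 CPM, and those of Ccnb1 301, 333, 248 and 306 CPM, below the DMSO mean only with antimycin. The 6 myoblast markers summed to 790.1 to 809, 349 to 368, 589 to 624 and 319.7 to 342 CPM in the same order. Id3 had means of 488, 158, 241 and 141 CPM, while Myf5 had a higher mean with each inhibitor, at 11, 56.3, 131 and 15.8 CPM. The part of both lists in the members' levels was not tested.

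**Figure D2:**
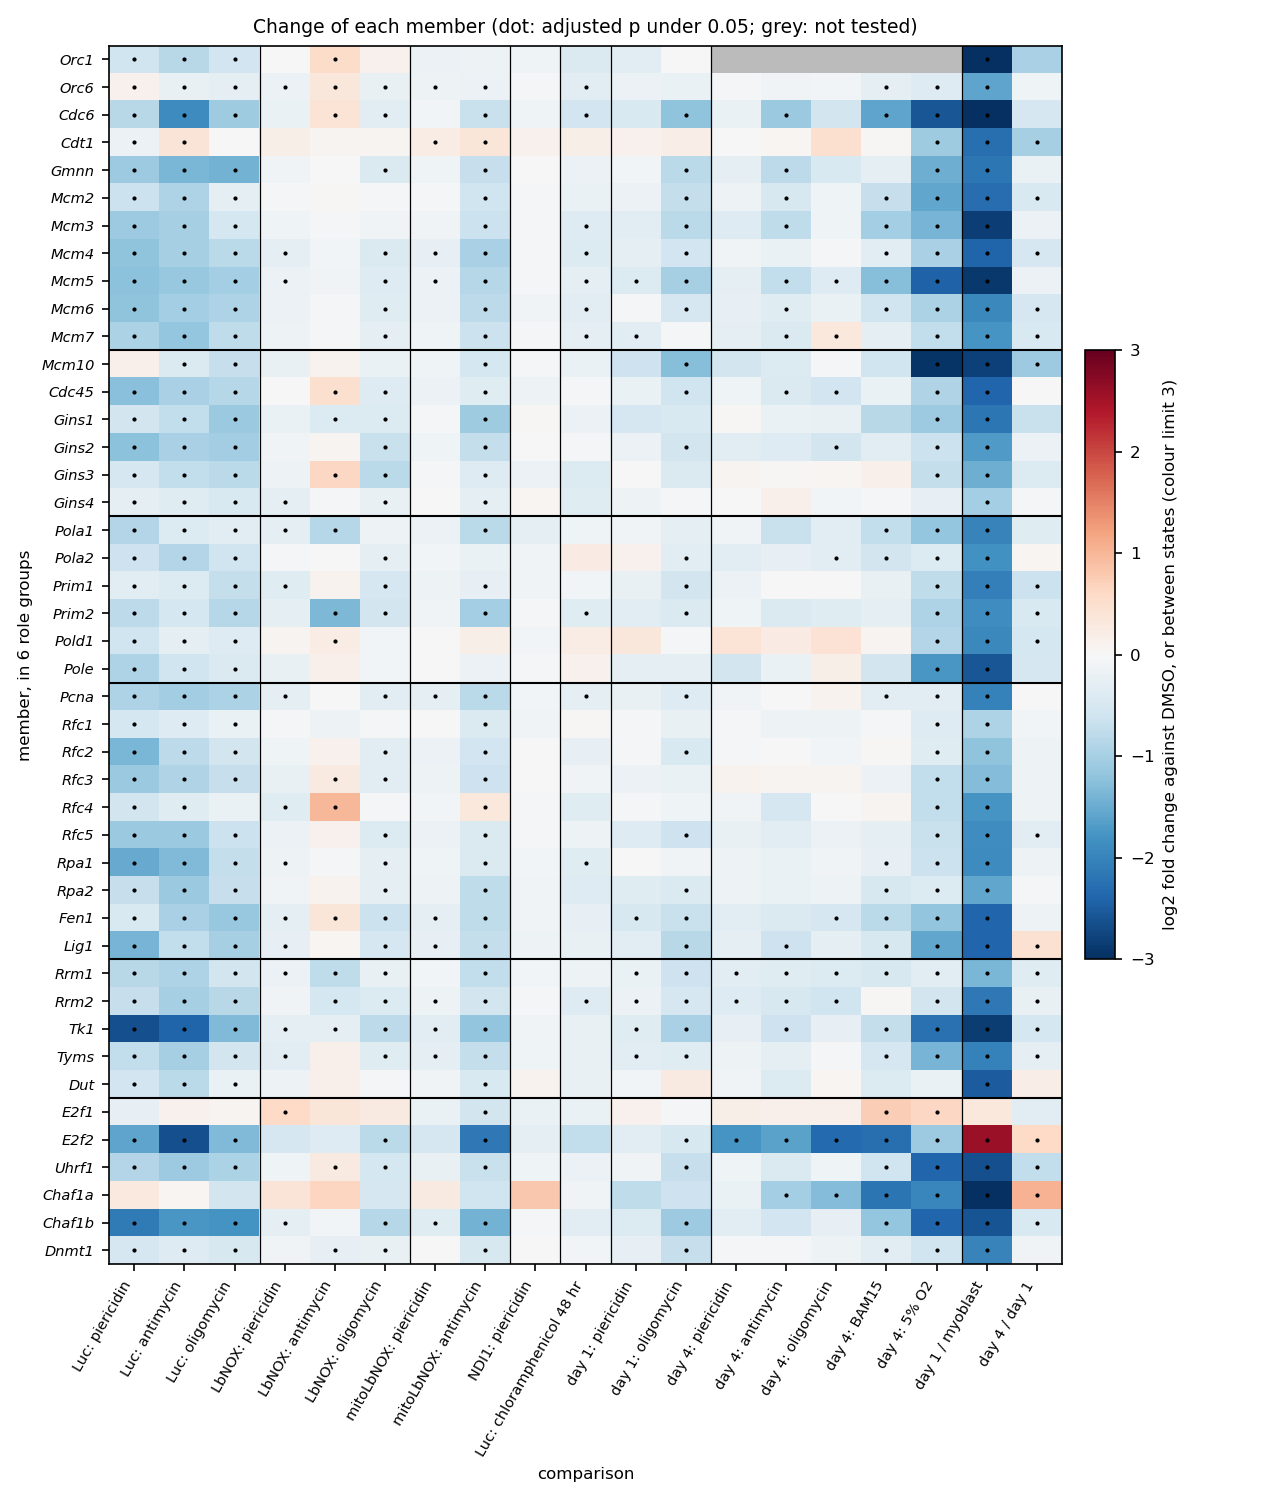
Log2 fold change (colour, blue lower and red higher, limit 3) of each of the 44 members (rows, in 6 role groups from licensing at the top to transcription and chromatin at the bottom) in 19 comparisons (columns), with a dot where the adjusted p was under 0.05 and grey where Orc1 was not tested. The first 3 columns are blue for nearly every row, with medians of -0.80, -0.92 and -0.70, the NDI1 column has no dot, and E2f2 is red where day 1 cells are set against myoblasts.

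Nucleotide supply held the largest fall with piericidin. Tk1 (chr11:117815526-117826092 in the GENCODE vM21 annotation of GRCm38, as for the genes below), which salvages thymidine, read 185, 190.0 and 196 CPM with DMSO, 31, 30.1 and 28.9 CPM with piericidin, 35.2, 30.3 and 38.8 CPM with antimycin and 75.8, 78.6 and 71.6 CPM with oligomycin. Every treated sample lay under every DMSO sample, and the oligomycin samples lay between DMSO and the other inhibitors. The log2 fold changes of Tk1 were -2.63 ± 0.0587 (adjusted p = 9.93e-26), -2.41 ± 0.0578 (adjusted p = 4.68e-25) and -1.33 ± 0.0544 (adjusted p = 7.91e-19). Rrm2, the regulated subunit of ribonucleotide reductase, read 830.2, 786 and 808 CPM with DMSO and 397, 396 and 386 CPM with antimycin, which is 808 ± 22.2 and 393 ± 5.97 CPM as mean ± SD (adjusted p = 1.63e-19). Its partner Rrm1 and Tyms changed by -0.92 and -0.99 with antimycin. Dut, which removes dUTP, had the smallest change of the 5 under each inhibitor, -0.57, -0.81 and -0.19, and its call with oligomycin was lost without the samples numbered 1. All 5 were lower with each inhibitor.

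In licensing, 10 of 11 genes were lower with each inhibitor. The ring subunits Mcm2 to Mcm7 all fell, and with piericidin their log2 fold changes lay between -1.23 for Mcm5 and -0.64 for Mcm2. Mcm5 (chr8:75109569-75128439) read 236, 222 and 235 CPM with DMSO, 98.7, 93.8 and 95.3 CPM with piericidin, 98.7, 102 and 103 CPM with antimycin and 121, 114 and 104 CPM with oligomycin, so its treated samples were all well below the DMSO samples. Cdc6 (chr11:98907801-98923940) read 49.7, 47.1 and 49.4 CPM with DMSO, 30.5, 26.4 and 23.3 CPM with piericidin and 11.2, 14.1 and 12.8 CPM with antimycin. Its fall was deepest with antimycin, -1.90 ± 0.106 (adjusted p = 7.12e-16), and the antimycin samples lay under all piericidin samples. Gmnn, the Cdt1 inhibitor, changed by -1.09, -1.38 and -1.41 with piericidin, antimycin and oligomycin, the last being the deepest fall in this group of genes for that inhibitor.

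Cdt1 and Orc6 were the licensing genes that went another way. Cdt1, which Gmnn binds, read 67.7, 70.0 and 73 CPM with DMSO, 60.5, 62 and 58.4 CPM with piericidin, 86.5, 94.9 and 83.8 CPM with antimycin and 70.6, 70.5 and 70.3 CPM with oligomycin. It fell with piericidin, -0.18 ± 0.0669 (adjusted p = 0.0177), rose with antimycin, 0.38 ± 0.0661 (adjusted p = 1.31e-05), and had 0.02 ± 0.0662 (adjusted p = 0.849) with oligomycin. Orc6, a small subunit of the origin recognition complex, rose slightly with piericidin, 0.14 ± 0.0497 (adjusted p = 0.0168), where its samples read 131, 147 and 136 CPM against 126, 131 and 129 CPM with DMSO, so that the lowest treated sample was level with the highest DMSO sample. That call was lost when the samples of any 1 number were left out. Orc6 was lower with antimycin, -0.23 (adjusted p = 0.000184), and oligomycin, -0.26 (adjusted p = 5.61e-05).

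Among the helicase activators, 5 of 6 were lower with piericidin and all 6 with the other inhibitors. Cdc45 changed by -1.25, -0.97 and -0.85 with piericidin, antimycin and oligomycin, and Gins2 by -1.24, -0.98 and -1.05. Gins1 had its deepest fall with oligomycin, -1.12 ± 0.132 (adjusted p = 2.16e-08). Gins4 changed least with antimycin and oligomycin, -0.37 and -0.46. Mcm10, which helps to start the helicase, read 47.2, 37.8 and 42.8 CPM with DMSO and 40.5, 46.7 and 50.6 CPM with piericidin, ranges that overlap, and was the member of this group not called there, at 0.15 ± 0.0946 (adjusted p = 0.184). With oligomycin it fell to 28.9, 25.2 and 24.3 CPM.

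The 6 polymerase and primase genes were lower with every inhibitor, with medians of -0.70, -0.47 and -0.52. Pole, the leading strand polymerase, fell most with piericidin, -0.94 ± 0.138 (adjusted p = 8.59e-07), Pola2 with antimycin, -0.88 ± 0.0907 (adjusted p = 9.72e-10), and Prim2 with oligomycin, -0.85 ± 0.111 (adjusted p = 1.47e-07). The smallest changes were -0.31 for Prim1 with piericidin, -0.28 for Pold1 with antimycin and -0.32 for Pola1 with oligomycin.

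All 10 genes of the clamp, loader, single-strand binding and ligation group fell with piericidin and antimycin, and 9 with oligomycin. Rpa1 (chr11:75298166-75348324), the large subunit of the single-strand binding protein, read 267, 261 and 253 CPM with DMSO, 86.8, 90.9 and 88 CPM with piericidin, 99.3, 105 and 97.9 CPM with antimycin and 158, 161 and 152 CPM with oligomycin. The 4 treatments did not overlap, and piericidin gave the lowest values, at a log2 fold change of -1.52 ± 0.0454 (adjusted p = 1.24e-22). Fen1, the flap nuclease, had the reverse order, from -0.45 with piericidin over -0.97 to -1.14 with oligomycin. Pcna, the clamp, changed by -0.92, -1.04 and -0.94, and the pseudogene Pcna-ps2, whose sequence it shares, had -0.87, -1.08 and -0.89. Rfc4 was the loader subunit not called with oligomycin, at -0.19 ± 0.0955 (adjusted p = 0.0953).

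In the transcription and chromatin group, 4 of 6 members were lower with each inhibitor. Chaf1b (chr16:93883901-93906115), a subunit of the chromatin assembly factor that follows the fork, read 61, 58.2 and 60.6 CPM with DMSO, 11.4, 13.7 and 15 CPM with piericidin, 16.4, 17.3 and 18.4 CPM with antimycin and 18.5, 15.9 and 17.1 CPM with oligomycin. It was the second most reduced member with piericidin, -2.13 ± 0.0878 (adjusted p = 4.83e-19), and the most reduced with oligomycin, -1.79 ± 0.0847 (adjusted p = 2.67e-17). E2f2 (chr4:136172394-136196057), an activating E2F factor, read 8.28, 10.5 and 10.0 CPM with DMSO and 0.989, 1.82 and 1.73 CPM with antimycin, a log2 fold change of -2.63 ± 0.268 (adjusted p = 7.35e-10), the largest for that inhibitor. Uhrf1 and Dnmt1, which copy DNA methylation onto the new strand, changed by -1.09 and -0.38 with antimycin. E2f1 was not called, with -0.25 ± 0.178 (adjusted p = 0.221), 0.14 ± 0.174 (adjusted p = 0.51) and 0.07 ± 0.173 (adjusted p = 0.747) for the 3 inhibitors. Chaf1a was not called either, and its DMSO samples were spread over 19.3, 42.1 and 27.5 CPM. Chaf1a shares 2542 bases with Ubxn6, whose mean count was 367% of its own, and the part of this sharing in its spread was not tested.

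**Figure D3:**
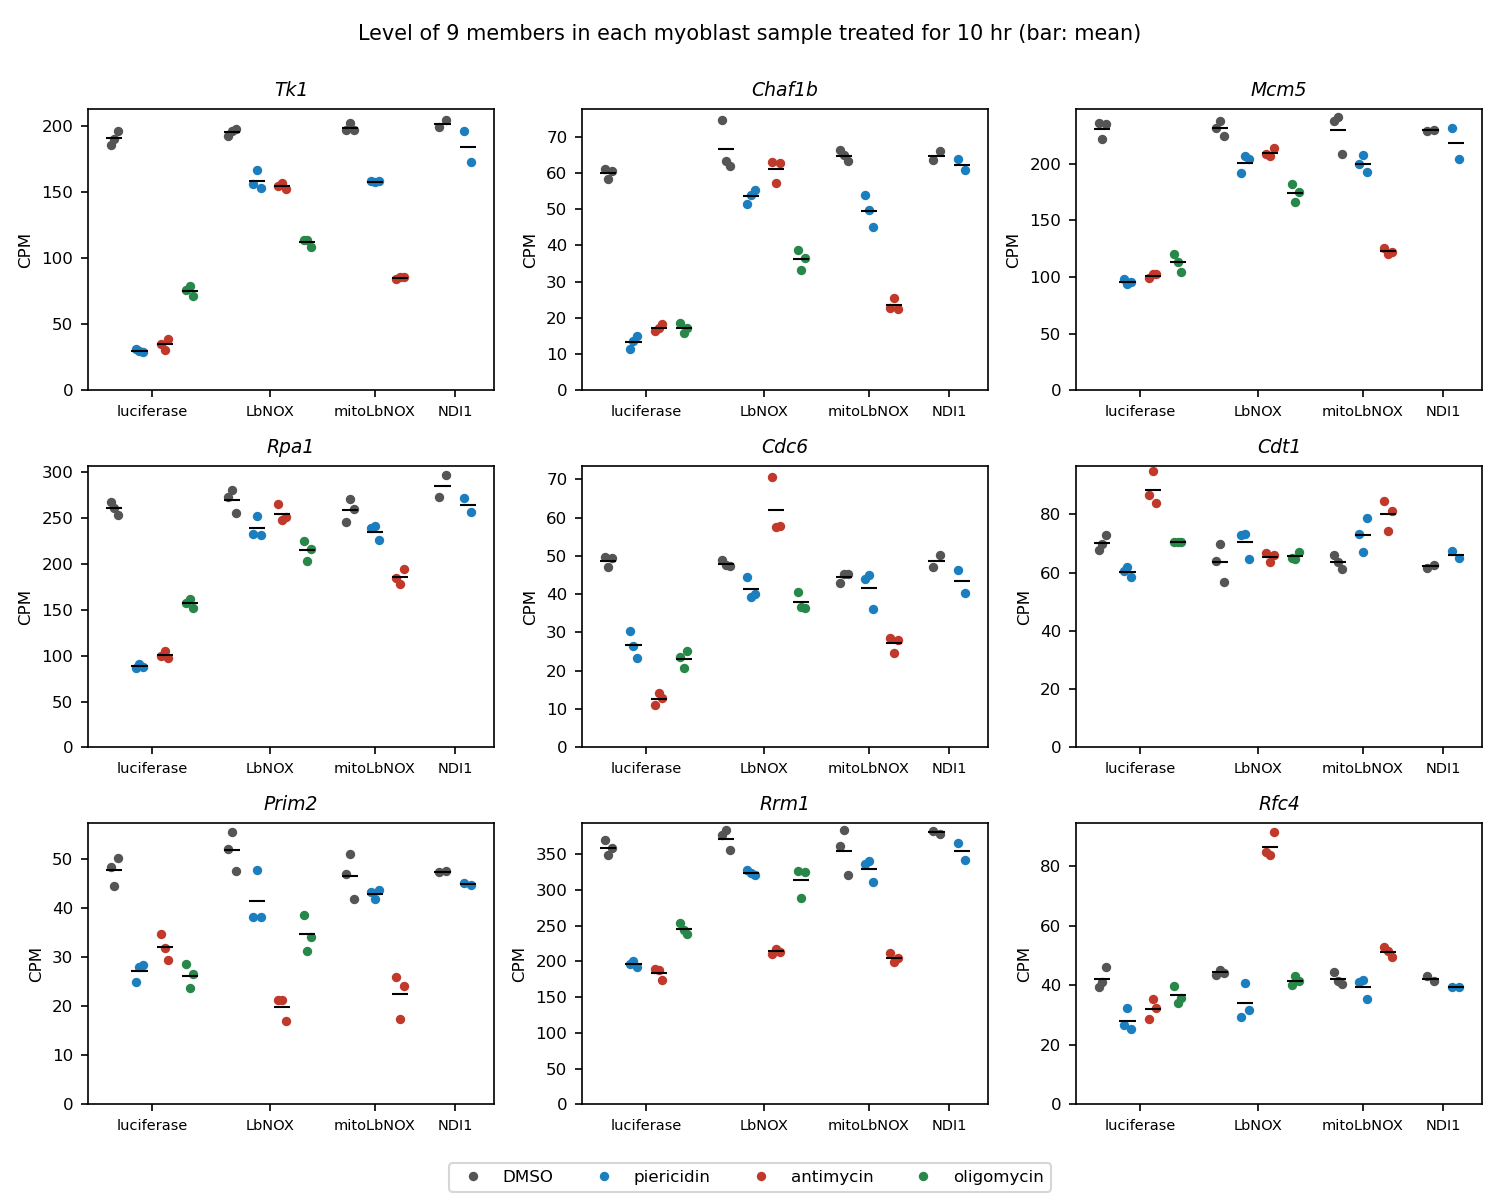
Level in CPM (y axes, from 0) of 9 members in each 10 hr myoblast sample (points; bars are means), by cell line (x axes) and treatment (grey DMSO, blue piericidin, red antimycin, green oligomycin). In luciferase cells Tk1 fell from 185 to 196 CPM to 28.9 to 31 CPM with piericidin, while in LbNOX cells with antimycin Rfc4 read 83.8 to 91.4 CPM and Prim2 16.9 to 21.3 CPM.

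The inhibitors also differed from each other within luciferase cells. Piericidin left 23 members lower and 7 higher than oligomycin did (all genes 19.2% and 20%), led by Tk1, -1.31 ± 0.0584 (adjusted p = 3.06e-17), Rfc2, -0.83, and Rpa1, -0.80, on the low side and Mcm10, 0.84 ± 0.0977 (adjusted p = 3.95e-08), on the high side. Antimycin against oligomycin gave 19 lower and 7 higher (all genes 23.9% and 26.1%), with E2f2 at -1.31 and Tk1 at -1.08. Between antimycin and piericidin, 14 members were lower with antimycin and 11 higher (all genes 17.9% and 19.3%). Cdc6, -1.07 ± 0.109 (adjusted p = 3.37e-09), and E2f2, -1.06, were the lowest, and Lig1, 0.66 ± 0.0742 (adjusted p = 2.03e-08), Rfc2, 0.59, and Cdt1, 0.56, the highest. Without the samples numbered 1, 9 members and not 14 were lower, and the E2f2 call was lost, as it was without those numbered 3. The higher members were 15.9% of the 44 for piericidin against oligomycin and 15.9% for antimycin against oligomycin, both below the share of all genes. For antimycin against piericidin they were 25%, near that share. On the high side, leaving out samples of 1 number gave as few as 7 for antimycin against piericidin, 4 for piericidin against oligomycin and 2 for antimycin against oligomycin.

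The next question was whether NADH oxidation in the cytosol or matrix changes the response to complex I inhibition. In DMSO the lines hardly differed: 2 members were higher in LbNOX cells (Orc6, 0.43, and Rrm2, 0.16), 1 in mitoLbNOX cells (Orc6, 0.32) and 3 in NDI1 cells (Orc6, 0.38, Rfc5, 0.27, and E2f1, 0.66), and none was lower. The NDI1 groups held 2 samples each, and the count there was 1 without the samples of any 1 number. Without number 1 or 2 a lone NDI1 sample is left, which is assumed to vary like the other groups. Over all genes, 1.37%, 0.768% and 1.85% were lower and 1.29%, 0.977% and 2.72% higher in those lines. With piericidin, 15 members were lower and 1 higher in LbNOX cells (all genes 3.87% and 5.01%), 10 and 1 in mitoLbNOX cells (all genes 4.83% and 6.37%), and 0 of 44 in either direction in NDI1 cells (all genes 0% and 0.00835%), where 1 member had an unadjusted p under 0.05 and DESeq2 called none. The medians were -0.17, -0.14 and -0.07 on the log2 scale, and no member fell 2-fold in these lines. The 6 proliferation markers summed to 1246 to 1276 CPM with DMSO and 1038.5 to 1135.5 CPM with piericidin in LbNOX cells. In mitoLbNOX cells they summed to 1180 to 1285 and 1016 to 1068 CPM, and in NDI1 cells to 1250 to 1340 and 1139 to 1198 CPM. Their part in the members' levels was not tested. The count in LbNOX cells varied with the settings: it was 8 with no count filter, 5 when only the groups compared were fitted and 0 to 7 without the samples of 1 number. The mitoLbNOX count was 3 to 6 without the samples of 1 number.

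The differences between lines were tested directly. Members whose log2 fold change with piericidin was higher than in luciferase cells numbered 35 with LbNOX, 36 with mitoLbNOX and 37 with NDI1, and 2, 1 and 0 were lower. Over all genes the shares were 22.3%, 21.5% and 21.2% higher and 22%, 21.4% and 21.5% lower. Tk1 read 192, 196 and 198 CPM with DMSO and 156, 166 and 153 CPM with piericidin in LbNOX cells, 197, 202 and 197 CPM and 158, 157 and 158 CPM in mitoLbNOX cells, and 199 and 204 CPM and 196 and 173 CPM in NDI1 cells. Its treated samples lay below the DMSO samples in each line, but much nearer to them than in luciferase cells, and its difference in log2 fold change from luciferase cells was 2.35 ± 0.0782 (adjusted p = 1.37e-20) with LbNOX. Within NDI1 cells Tk1 was not called, at -0.10 ± 0.0642 (adjusted p = 0.645). Chaf1b, 1.84 ± 0.117 (adjusted p = 8.01e-14), Rpa1, 1.37, Rfc2, 1.24, and Cdc45, 1.24, followed. Orc6 and Mcm10, which had not fallen in luciferase cells, had the opposite sign, -0.33 ± 0.0700 (adjusted p = 0.000323) and -0.38 ± 0.134 (adjusted p = 0.0212). E2f1 was the member higher with piericidin in LbNOX cells, 0.60 ± 0.168 (adjusted p = 0.0206), with samples at 10.3, 12.4 and 11.6 CPM against 8.68, 7.71 and 6.63 CPM, a call lost without the samples numbered 2 or 3. The Mcm10 interaction was lost without those samples too.

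Antimycin with LbNOX gave a split response. Here 7 members were lower and 10 higher than with DMSO, with a median of 0.06 (all genes 22.9% lower and 23.3% higher, median 0.029). The shares of members were thus 15.9% and 22.7%, at or below the background. The 7 lower members were Prim2, Pola1, Rrm1, Rrm2, Gins1, Tk1 and Dnmt1, and the 10 higher ones Rfc4, Gins3, Orc1, Cdc45, Cdc6, Fen1, Orc6, Uhrf1, Rfc3 and Pold1. Prim2 (chr1:33453810-33669795), the large primase subunit, read 52, 55.4 and 47.5 CPM with DMSO and 21.3, 21.2 and 16.9 CPM with antimycin, and 34.7, 31.8 and 29.5 CPM in luciferase cells with antimycin. The LbNOX samples lay below the luciferase samples under the same inhibitor, and the log2 fold change was -1.35 ± 0.114 (adjusted p = 4.49e-11). Pola1 (chrX:93304767-93632155), the catalytic subunit of the polymerase that works with primase, read 58.9, 58.1 and 52.5 CPM and 32.8, 28.8 and 28.9 CPM, a change of -0.87 ± 0.0741 (adjusted p = 6e-11). Rrm1 changed by -0.76 ± 0.0469 (adjusted p = 3.81e-14) and Rrm2 by -0.52 ± 0.0391 (adjusted p = 3.13e-12). The Gins1 call was lost without the samples numbered 1 or 3.

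Rfc4 (chr16:23113943-23127737) stood at the other end. It read 43.6, 45.2 and 44.3 CPM with DMSO and 84.7, 83.8 and 91.4 CPM with antimycin in LbNOX cells, 52.9, 51.7 and 49.5 CPM with antimycin in mitoLbNOX cells and 28.8, 35.3 and 32.2 CPM in luciferase cells. Each line stood apart from the others, and the LbNOX samples were about 2-fold above their DMSO samples, at 1.00 ± 0.0933 (adjusted p = 3.38e-10). Cdc6, the licensing gene most reduced by antimycin in luciferase cells, was higher with antimycin in LbNOX cells, 0.41 ± 0.0941 (adjusted p = 0.000653), at 70.6, 57.6 and 57.9 CPM against 49, 47.6 and 47.3 CPM. Gins3 rose by 0.62 ± 0.116 (adjusted p = 5.54e-05) and Orc1 by 0.55 ± 0.154 (adjusted p = 0.00381), while the Pold1 call was lost when samples of any 1 number were left out. The direct test of the difference between LbNOX and luciferase cells called 36 members higher and 3 lower (all genes 24.7% and 26.8%). The 3 lower were Prim2, -0.82 ± 0.158 (adjusted p = 6.5e-05), Pola1, -0.45 ± 0.104 (adjusted p = 0.000594), and Cdt1, -0.29 (not called without the samples numbered 1 or 2), and the largest on the other side were Cdc6, 2.31 ± 0.141 (adjusted p = 1.96e-14), E2f2, 2.24, and Tk1, 2.11.

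**Figure D4:**
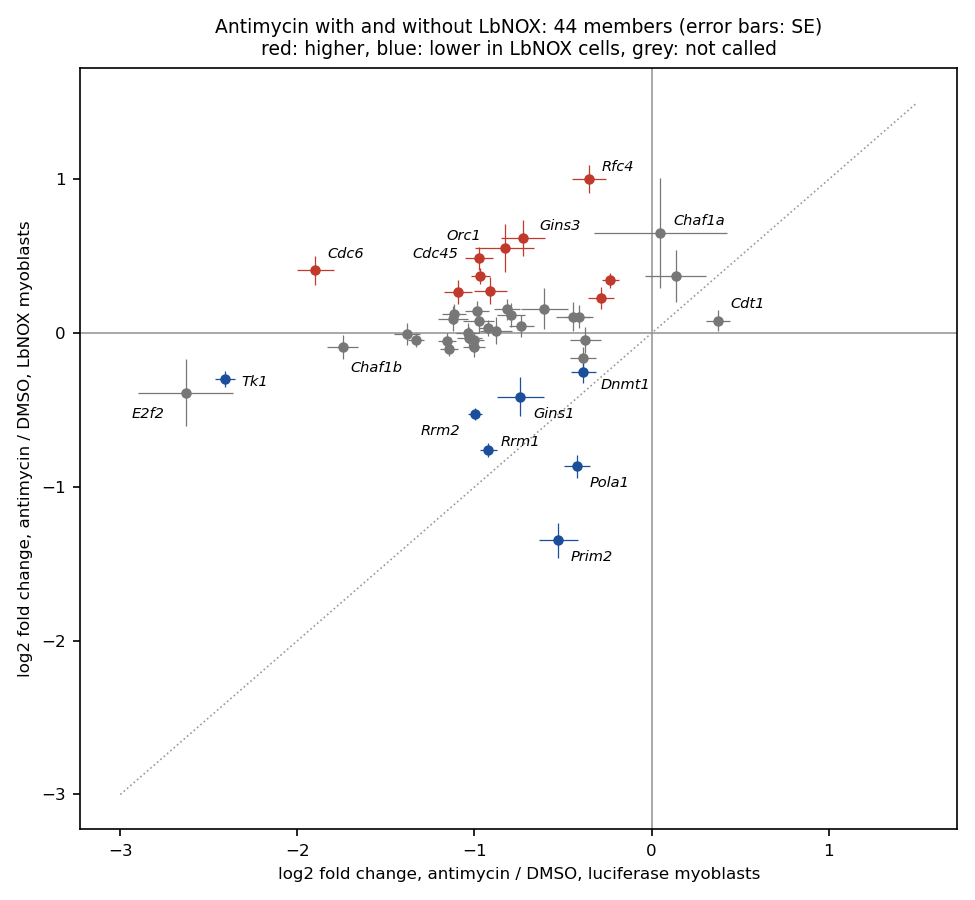
Log2 fold change of the 44 members with antimycin in luciferase myoblasts (x axis) and in LbNOX myoblasts (y axis), each against its own DMSO samples; error bars are the SE, red and blue mark members called higher or lower in LbNOX cells, and the dotted line is equality. Most members lie left of 0 and near 0 in height, Prim2 (-0.53 and -1.35) and Pola1 (-0.42 and -0.87) lie under the line, and Rfc4 (-0.35 and 1.00) is the highest.

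Marker lists were read in the same LbNOX samples. The 6 proliferation markers summed to 1246 to 1276 CPM with DMSO and 691 to 730.1 CPM with antimycin, while the summed members went from 5601 ± 182 to 5196 ± 113 CPM. Plk1 had means of 132 and 50.9 CPM and Bub1 of 86.9 and 73.9 CPM, and the difference between the markers and the members was not tested. The 8 p53 response genes summed to 476 to 485 CPM and 1068 to 1153 CPM, against 656 to 665 CPM in luciferase cells with antimycin. Between the 2 lines with antimycin, 5 of the 8 had the higher mean in LbNOX cells, chiefly Cdkn1a and Ccng1 (405 against 164 CPM). Mdm2 (161 against 172 CPM), Sesn2 (42.4 against 97.6 CPM) and Bbc3 (0.658 against 1.57 CPM) had the lower mean there. Cdkn1a, which blocks Cdk2, had means of 113 CPM and 407 CPM in LbNOX cells, and of 192 CPM in luciferase cells with antimycin. The 6 integrated stress response genes summed to 3850.1 to 4025 CPM in luciferase and 662 to 714 CPM in LbNOX cells with antimycin. The part of these lists in the members' levels was not tested.

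With mitoLbNOX and antimycin, and with LbNOX and oligomycin, most members still fell. In mitoLbNOX cells 37 members were lower and 2 (Cdt1 and Rfc4) higher with antimycin, with a median of -0.61 (all genes 22.9% and 24.8%). E2f2, -2.14 ± 0.246 (adjusted p = 1.68e-08), Chaf1b, -1.42, and Tk1, -1.18, fell most, and Prim2, -1.01, fell more than in luciferase cells. The test against luciferase cells called 24 members higher and 3 lower (all genes 15.4% and 16.3%), led by Tk1, 1.23 ± 0.0778 (adjusted p = 2.45e-13), and Cdc6, 1.23, and the lower ones were E2f1, -0.68, Prim2, -0.48, and Pola1, -0.39. Without the samples numbered 1, that higher count was 12, and the calls of E2f1, Prim2 and Pola1 were each lost without those of 2 of the 3 numbers. With oligomycin in LbNOX cells, 31 members were lower and 0 higher, with a median of -0.32 (all genes 17.7% and 17.5%). Chaf1b, -0.85 ± 0.0801 (adjusted p = 6.04e-10), E2f2, -0.81, Gins3, -0.81, and Tk1, -0.78, fell most. The test against luciferase cells called 21 higher and 0 lower (all genes 3.8% and 4.18%), and 13 higher without the samples numbered 1. Gmnn, 0.98 ± 0.102 (adjusted p = 7.97e-08), and Chaf1b, 0.94, differed most.

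Chloramphenicol for 48 hr gave smaller changes. In luciferase cells 11 members were lower and 0 higher (n = 2 per group, all genes 3.62% and 4.83%), of which 7 were licensing genes. Cdc6 had the largest fall among them, -0.57 ± 0.0972 (adjusted p = 0.00765), with samples at 46.7 and 48.4 CPM with DMSO and 28.9 and 32.7 CPM with chloramphenicol, and Mcm4, -0.41, and Mcm3, -0.38, were next. In LbNOX cells 0 members were called (all genes 0.256% and 0.675%), with 6 at an unadjusted p under 0.05 and 0 called by DESeq2. Cdc6 read 45.8 and 45.4 CPM and 42.7 and 39.1 CPM there. The difference between the lines was not called for any member (all genes 0.453% lower and 0.0769% higher), with 10 at an unadjusted p under 0.05 and 1 called by DESeq2 (2 by edgeR with no count filter), so the lines are not shown to differ by the main test.

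Between cell states the members moved further, in the median, than with any inhibitor. Against luciferase myoblasts, 42 of 44 members were lower and 1 higher in day 1 cells (all genes 32.3% and 31.3%), with a median of -2.02, and 41 fell at least 2-fold. State cannot be told apart here from transduction, doxycycline, serum and confluence, which changed with it. From day 1 to day 4 the members moved little more, with 16 lower, 3 higher and a median of -0.25 (all genes 16% and 19.6%). With the outer wells of the plate as a covariate 10 were lower. The DMSO samples of luciferase myoblasts and day 1 cells all lay in outer wells, and those of day 4 myotubes all in inner ones. Plate position thus cannot be told apart from the day 4 state in these samples, and the covariate takes its effect from other groups. Day 4 against myoblasts gave 42 lower and 1 higher (all genes 33.7% and 35.7%). Orc1, the largest subunit of the origin recognition complex, read 15.3, 18.5 and 20.0 CPM in myoblasts, 2.41, 1.19 and 1.7 CPM on day 1 and 0.928, 0.453 and 1.23 CPM on day 4. No untransduced myotube group had 16 counts of it in every sample, so it was not tested there, and its change from myoblasts to day 1 was -3.33 ± 0.335 (adjusted p = 7.74e-10).

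By role, licensing genes had a median of -2.90 from myoblasts to day 4 myotubes, polymerases and primase -2.41, nucleotide supply -2.31, helicase activation -2.13, the clamp group -1.93 and transcription and chromatin, which holds E2f2 and E2f1, -2.06. Differences between roles were not tested. Mcm5 went from 222 to 236 CPM to 21.9 to 30.2 CPM and Uhrf1 from 191 to 193 CPM to 16.7 to 20.3 CPM. Rfc1, -0.99 ± 0.088 (adjusted p = 5.15e-11), and Gins4, -1.04 ± 0.104 (adjusted p = 5.91e-10), kept most of their level among those that fell. Lig1, 0.45, and Chaf1a, 1.04, were higher on day 4 than on day 1, as was E2f2. The Chaf1a call was lost when samples of any 1 number were left out, and the Lig1 call without those numbered 1.

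E2f2 rose at both steps of differentiation, and was the member called higher in day 1 cells than in myoblasts. It read 8.28, 10.5 and 10.0 CPM in myoblasts, 57.9, 60.6 and 55.7 CPM in day 1 cells and 94.1, 86.7 and 78.3 CPM in day 4 myotubes, so the 3 states did not overlap. The log2 fold changes were 2.59 ± 0.136 (adjusted p = 3.53e-16) from myoblasts to day 1 and 0.61 ± 0.118 (adjusted p = 0.000151) from day 1 to day 4. E2f1, its close relative, read 6.98, 8.85 and 6.51 CPM in myoblasts, 11, 8.5 and 8.42 CPM on day 1 and 7.84, 7.97 and 5.88 CPM on day 4, and was not called, 0.32 ± 0.192 (adjusted p = 0.149) on day 1.

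**Figure D5:**
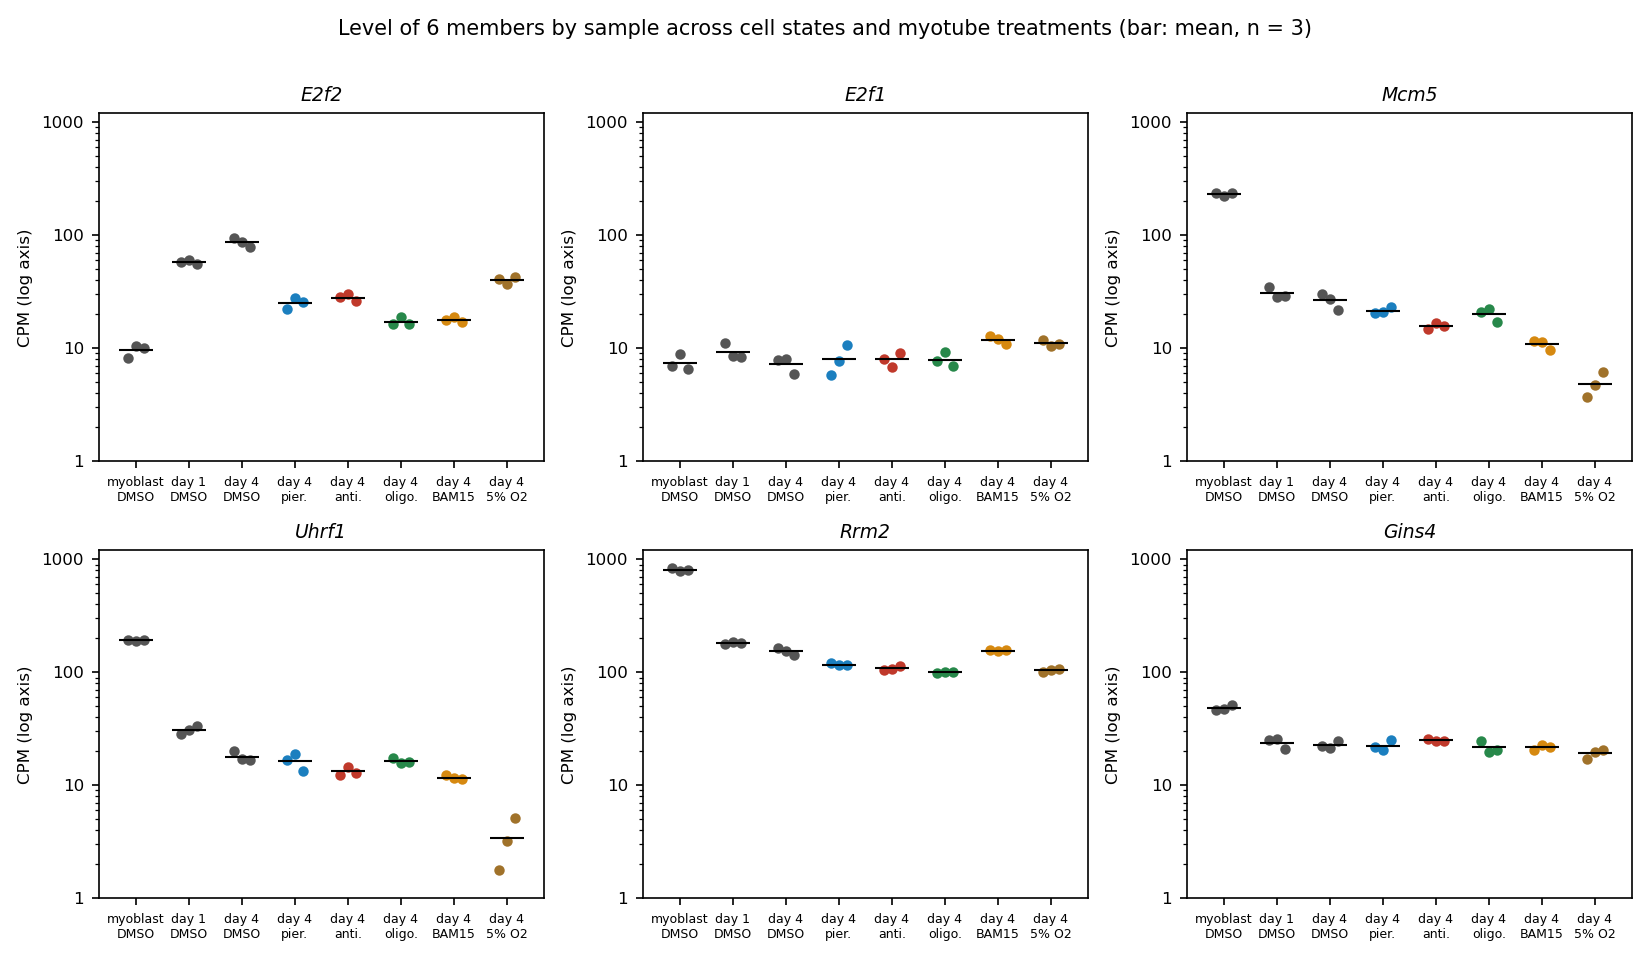
Level in CPM (log y axes) of 6 members in each sample (points; bars are means, n = 3) of luciferase myoblasts, day 1 cells and day 4 myotubes with DMSO, and of day 4 myotubes with piericidin, antimycin, oligomycin, BAM15 or 5% oxygen. E2f2 rose from 8.28 to 10.5 CPM to 78.3 to 94.1 CPM with differentiation and fell to 16.4 to 18.8 CPM with oligomycin, and Uhrf1 was lowest in 5% oxygen, at 1.79 to 5.18 CPM.

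In day 4 myotubes, where 43 members were tested, the inhibitors moved fewer of them. Piericidin lowered 3 members and raised 0 (all genes 4.84% and 4.15%), antimycin 14 and 0 (all genes 6.27% and 6.64%), oligomycin 9 and 1 (all genes 16.4% and 16.9%) and BAM15 22 and 1 (all genes 12.2% and 13.2%). The oligomycin share, 20.9% lower, was close to the background. The medians were -0.15, -0.36, -0.14 and -0.35. Rrm1 was lower with all of them and Rrm2 with all but BAM15. Rrm2 read 164, 154 and 141 CPM with DMSO, 120.1, 115 and 116 CPM with piericidin, 99.5, 101 and 100.4 CPM with oligomycin and 156, 154 and 158 CPM with BAM15. Cdc6, -1.58 ± 0.277 (adjusted p = 0.000152), and Mcm5, -1.27 ± 0.157 (adjusted p = 1.37e-06), fell with BAM15, and E2f1 rose, 0.73 ± 0.187 (adjusted p = 0.00551), though not without the samples numbered 2. Mcm7, 0.32 ± 0.102 (adjusted p = 0.0184), was the member higher with oligomycin, a call lost without those numbered 1 or 3. The antimycin count was 4 without the samples numbered 2 and 7 without those numbered 1, the oligomycin count 3 and 5, and the BAM15 count 12 without those numbered 2.

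E2f2 changed most in myotubes with piericidin, antimycin, oligomycin and BAM15. It read 22.1, 27.6 and 25.6 CPM with piericidin, 28.2, 30.0 and 26.1 CPM with antimycin, 16.4, 18.8 and 16.4 CPM with oligomycin and 17.7, 18.8 and 17.2 CPM with BAM15. All 12 treated samples were below the lowest DMSO sample, and the log2 fold changes were -1.77 ± 0.0933 (adjusted p = 2.59e-12), -1.61 ± 0.0905 (adjusted p = 4.45e-12), -2.32 ± 0.0953 (adjusted p = 1.25e-15) and -2.26 ± 0.0949 (adjusted p = 7.21e-15). The fall was larger with oligomycin than in myoblasts, by -1.01 ± 0.221 (adjusted p = 0.000908), and smaller with antimycin, by 1.08 ± 0.26 (adjusted p = 0.00111). Transduced myotubes went in the same direction. There E2f2 had -1.42 ± 0.132 (adjusted p = 3.19e-05) with piericidin and -2.04 ± 0.138 (adjusted p = 5.81e-08) with oligomycin in GFP cells, and -1.52 ± 0.109 (adjusted p = 9.34e-07) and -1.72 ± 0.11 (adjusted p = 2.36e-08) in LbNOX cells. Of 44 members tested there, 3 and 5 were lower and 0 and 1 higher in GFP cells with piericidin and oligomycin (all genes 1.63% and 11.8% lower, 1.45% and 14% higher), and 1 and 5 lower and 0 and 3 higher in LbNOX cells (all genes 3.37% and 14.5% lower, 3.4% and 17.2% higher). The 3 higher in LbNOX cells with oligomycin were Cdt1, 0.65, Mcm7, 0.44, and Dut, 0.39. In untransduced myotubes the early differentiation markers (Myog, Mymk, Mymx, Cdkn1c, Mef2c) summed to 1799.5 to 1852 CPM with DMSO. They summed to 1473 to 1524, 1457 to 1530, 2662 to 2677 and 1596 to 1634 CPM with piericidin, antimycin, oligomycin and BAM15. With oligomycin only Myog had a higher mean, 1827 against 747 CPM. The part of this list in the E2f2 level was not tested.

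Most members also fell with oligomycin in day 1 cells. There 27 members were lower and 0 higher with oligomycin (all genes 9.29% and 12%), with a median of -0.47, and 7 lower and 0 higher with piericidin (all genes 1.77% and 1.98%). The piericidin count fell to 3, 0 and 2 without the samples numbered 1, 2 and 3. Mcm10, -1.28 ± 0.264 (adjusted p = 0.000558), Cdc6, -1.21, and Chaf1b, -1.09, fell most with oligomycin, and Mcm5 read 35.1, 28.1 and 29.3 CPM with DMSO and 16.3, 16.1 and 13 CPM with oligomycin. The proliferation markers summed to 213 to 237 CPM with DMSO and 173 to 184 CPM with oligomycin. The early differentiation markers summed to 2191 to 2367 and 2606 to 2672 CPM. Myog had means of 1453 and 1938 CPM, and the rest of that list had lower means with oligomycin. The part of both lists in the members' levels was not tested. Tested directly, the response of 30 members to piericidin and 12 to oligomycin was higher (a smaller fall, or none) in day 1 cells than in myoblasts, and 1 (Mcm10) and 1 (Mcm2) lower (all genes 25.4% and 14.9% higher, 21.2% and 10.1% lower). In day 4 myotubes against myoblasts, 30, 29 and 26 members were higher and 0, 0 and 1 lower for piericidin, antimycin and oligomycin (all genes 25.2%, 25.4% and 15.8% higher, 21.3%, 22.5% and 13.2% lower). Tk1 differed by 2.45 ± 0.151 (adjusted p = 9.24e-14) for piericidin. The oligomycin counts were 5 or 6 in day 1 cells and 16 in myotubes when samples of 1 number, or those numbered 2, were left out.

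Low oxygen lowered the members in myotubes more, in the median, than any inhibitor did there. It began the night before treatment, so it lasted longer than the 10 hr of the inhibitors. In 5% oxygen 40 of 43 members were lower and 1 higher than with DMSO in ambient oxygen (all genes 9.78% and 12.3%), with a median of -0.91, and 18 fell at least 2-fold. Mcm10 had the largest fall, -2.94 ± 0.494 (adjusted p = 6.79e-05), from 2.78, 2.72 and 2.75 CPM to 0.106, 0.379 and 0.527 CPM, which are few counts. Cdc6, -2.57 ± 0.305 (adjusted p = 4.8e-07), Mcm5, -2.43 ± 0.172 (adjusted p = 6.2e-11), Chaf1b, -2.37, and Uhrf1, -2.37 ± 0.232 (adjusted p = 2.04e-08), were next. Mcm5 read 3.7, 4.74 and 6.15 CPM against 30.2, 27.3 and 21.9 CPM, and Tk1 5.17, 2.37 and 3.87 CPM against 19.7, 18.6 and 15.5 CPM, with no overlap. All 10 licensing genes tested were lower, down to -0.38 for Orc6, as were all 10 of the clamp group, down to -0.32 for Pcna. Gins4, -0.24 ± 0.0983 (adjusted p = 0.0809), and Dut, -0.21 ± 0.181 (adjusted p = 0.48), were not called, and E2f1 was the member that rose, 0.61 ± 0.189 (adjusted p = 0.0196), a call lost when samples of any 1 number were left out.

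The 6 proliferation markers moved with them, from 119 to 152 CPM to 24.9 to 26.1 CPM, while the 10 myotube markers read 15722 to 16456 CPM and 16949 to 17665 CPM. Adding oligomycin in 5% oxygen called 0 members lower and 1 higher (all genes 2.22% and 2.04%), E2f2 at 0.34 ± 0.0905 (adjusted p = 0.027), with 7 members at an unadjusted p under 0.05. E2f2 was higher with oligomycin in 5% oxygen, at 52.3, 48.6 and 51.1 CPM against 40.9, 37.1 and 43.1 CPM, and fell with it in ambient oxygen. The call in 5% oxygen was lost when samples of any 1 number were left out, and the difference between those effects was not tested. Oligomycin with BAM15, against oligomycin alone, lowered 19 members and raised 2 (all genes 14.1% and 12%), with Cdc6 at -1.52 ± 0.295 (adjusted p = 0.00033) and Mcm5 at -1.11 ± 0.161 (adjusted p = 8.1e-06), and 12 were lower without the samples numbered 1. Rrm2, 0.43, and E2f2, 0.32, were the higher ones, and 1 remained without the samples numbered 1 or 3. Oligomycin with piericidin, against oligomycin alone, lowered 1 member, Mcm7, -0.62 ± 0.103 (adjusted p = 8e-05), and raised 1, E2f2, 0.57 ± 0.0985 (adjusted p = 0.000128) (all genes 12.4% and 8.46%).

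Further genes of the pathway, 66 of them outside the 44, were counted in the same fits. In luciferase myoblasts 41, 45 and 37 of them were lower and 7, 5 and 11 higher with piericidin, antimycin and oligomycin, against 30.8%, 31.1% and 26.3% of all genes lower and 30.9%, 32.1% and 24.5% higher. The S phase cyclin Ccne1, -2.75 with piericidin and -2.78 with antimycin, and the nuclease helicase Dna2, -2.43 and -2.89, fell more than most members. Recql4, a helicase of replication start, 1.72 with piericidin, Pole4, an accessory polymerase subunit, 1.35, and Rrm2b, the p53-regulated subunit of ribonucleotide reductase, 1.08, rose. In LbNOX cells with antimycin 8 of the 66 were lower and 15 higher, shares no higher than those of all genes (22.9% and 23.3%), with Orc5 at -1.10 and Recql4 at 1.18. Of the 63 tested in myotubes, 28 were lower and 2 higher in 5% oxygen (all genes 9.78% and 12.3%), Ccna2, -3.19, and Pclaf, -3.18, falling most.

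Over the means of the 13 myoblast groups treated for 10 hr, most members followed the members' mean profile, but not all. Pearson's r with that profile, which each member helps to set, was -0.5 for Cdt1, 0.499 for Rfc4, 0.541 for Prim2 and 0.554 for Pola1. Outside the pathway lists, the genes most like the profile were Paqr4 (r = 0.991), Nfic (0.99), Kbtbd4 (0.989), Mxd3 (0.984) and 5730559C18Rik (0.984). The 13 points share scaling and DMSO groups, so these values are a description. Members with E2F letters in a promoter had a median log2 fold change of -0.88 with piericidin in luciferase myoblasts (n = 15) and those without -0.64 (n = 21), and -0.91 and -0.92 with antimycin.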

How the data were processed

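RNA was sequenced from 96 samples of C2C12 cells in 35 groups, as polyA-selected Smart-seq2 libraries that keep no strand, read in pairs on a NextSeq instrument. The deposited values are estimated counts per gene, which the authors made with kallisto 0.44 from reads demultiplexed with bcl2fastq 2.20.0.422 (versions from the submitters' processing notes), using Ensembl transcripts with the transgenes added, and summed over transcripts and flow cells without normalization. Transcripts that share sequence share reads in such counts, and an overlapping or antisense gene cannot be told apart. Total estimated counts per sample ranged from 6458295 to 15364638 (median 10331177), so levels of a few CPM rest on few reads, and p-values cover only the spread between the samples deposited.

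The counts, already whole numbers, were fitted with edgeR 4.0.16 in R 4.3.3 (TMM normalization, quasi-likelihood F test, Benjamini-Hochberg adjustment over all genes tested, threshold 0.05), in 5 fits: myoblasts for 10 hr, chloramphenicol, untransduced myotubes, transduced myotubes, and cell states. A gene was tested where every sample of at least 1 group of the fit had 16 counts, the rule of the study's methods. Standard errors were taken as the absolute log2 fold change over the square root of F. The fit was tested on simulated data for piericidin in luciferase myoblasts (11226 genes), where it recovered 159 of 200 genes changed 2-fold and made 9 false calls. The simulation held only the DMSO and piericidin samples. It changed far fewer genes than were called in the data, where 30.8% were lower and 30.9% higher. It therefore does not test the larger fits, or the scaling under such wide change. Levels are CPM over all 96 samples. Figures were drawn with matplotlib 3.10.9.

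The 44 members, the 66 further pathway genes and the marker lists were chosen with earlier results of these data known. Genes are named as the extremes of each role group and the members that were not called or went the other way, and genes outside the lists by Pearson's r with the members' mean profile over 13 group means. Gene coordinates are from GENCODE vM21 on GRCm38 and promoters from a RefSeq table of GRCm38.p6, matched by symbol, so a start site may differ between them. Shared sequence was searched between transcripts, and a pair was kept at 200 aligned bases and 95% identity. Alternatives were DESeq2 1.42.0 (its size factors, and its Wald test), no count filter, the replicate number as a block, the outer wells of the plate as a covariate, only the groups compared, and leaving out the samples of each number.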

Additional observations from a re-analysis of the deposited data

Results flagged for a closer look

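The effect of an inhibitor on the members differed between lines or states by a direct test (the interaction term of edgeR's quasi-likelihood fit). Against luciferase myoblasts, 37 of 44 members differed in their response to piericidin with LbNOX (all genes 22% lower and 22.3% higher), 37 with mitoLbNOX (21.4% and 21.5%) and 37 with NDI1 (21.5% and 21.2%). For antimycin 39 differed with LbNOX (26.8% and 24.7%) and 27 with mitoLbNOX (16.3% and 15.4%), and for oligomycin 21 with LbNOX (4.18% and 3.8%). Between day 4 myotubes and luciferase myoblasts, 30 members differed for piericidin (all genes 21.3% lower and 25.2% higher), 29 for antimycin (22.5% and 25.4%) and 27 for oligomycin (13.2% and 15.8%). Between day 1 cells and myoblasts, 31 differed for piericidin (21.2% and 25.4%) and 13 for oligomycin (10.1% and 14.9%). The last count is a share near that of all genes, and its 12 members called higher became 5 or 6 when samples of 1 number were left out. Comparisons within a fit share the luciferase samples and so are not independent of each other.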

How the results depend on the processing

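Of 249 recounts of the members called in 28 main comparisons, each in 1 direction, 232 lay within 1.5 times the reported count. Of 561 recounts of 64 further counts (other directions, day 1 and BAM15 comparisons and the like, many of them under 6), 460 did. With piericidin in LbNOX myoblasts (15 lower) the count was 8 with no count filter, 5 with only the groups compared and 0 to 7 without the samples of 1 number. With the samples of 1 number left out, it ran from 3 to 6 for piericidin with mitoLbNOX (10 lower), 9 to 11 for antimycin against piericidin (14 lower), 12 to 23 for antimycin and mitoLbNOX (24 higher), 13 to 17 for oligomycin and LbNOX (21 higher), 4 to 11 for antimycin in myotubes (14 lower), 3 to 7 for oligomycin there (9 lower), and 16 to 20 for oligomycin and the myotube state (26 higher). It was also 0 to 3 for piericidin in day 1 cells (7 lower; 3 with no count filter and 2 with only the groups compared), 5 to 6 for oligomycin and the day 1 state (12 higher), 12 for BAM15 without number 2 (22 lower), and 12 for oligomycin with BAM15 against oligomycin without number 1 (19 lower). Members higher with antimycin than with oligomycin numbered 2 to 4 without the samples of 1 number (7 as reported). With fewer samples a fit has less power, and for the other settings the cause was not tested. With outer wells as a covariate, 10 and not 16 members were lower in day 4 myotubes than in day 1 cells. Those DMSO samples lay all in inner and all in outer wells, so the covariate takes its effect from other groups. Over named members, 3360 of 3592 values kept direction and side of the threshold, 181 lost it, 51 gained it and 0 reversed.

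A replicate number is not shown to pair samples here. Deviations from the group means of same-numbered myoblast samples had a mean correlation of 0.0337, a lowest pair of -0.234 and 71 of 211 pairs over 0.1. Deviations cancel within a group, so the mean for different numbers, -0.0169, follows from the first and is no separate reference. With the replicate number as a block, 40, 41 and 40 members were lower with piericidin, antimycin and oligomycin in luciferase myoblasts, 11 with piericidin in mitoLbNOX myoblasts and 7 with oligomycin in myotubes, and none of the 28 counts moved by over 1.5 times. With DESeq2's size factors the summed level of 12 of 35 groups moved by over 1 SD, by -3.22% to 3.46%. Members at a few CPM, such as E2f1, E2f2 in myoblasts and Mcm10 in myotubes, are limited by depth.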
